A study of Mus musculus with 15 samples.

Results

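The voltage-gated and related cation channel genes are the genes whose symbols begin with Kcn, Scn, Cacn, Trpc, Trpm, Ryr or Asic, or with Hcn and a digit, outside chromosome 1. They were taken from the authors' deposited tables of histone H3 changes in the mouse nucleus accumbens, and 72 of the 6692 genes named in those tables outside chromosome 1 met the rule (7814 genes were named in all). The files were compared as deposited: 3 pairs of groups of C57BL/6 mice, with 1 table of changed H3 occupancy and 1 table of nucleosome shifts for each pair, and 1 genome segmentation of ACF1 binding for each group. Susceptible mice had met a new aggressive CD1 mouse on each of 10 days of chronic social defeat. Resilient mice had met the same defeat, and a social interaction test parted the groups; by usual definition susceptible mice avoid the social target and resilient mice do not. Control mice made up the remaining group; the labels used here give neither their housing nor the age or sex of any mice. At 48 hours from the final defeat the accumbens was punched out, and the tissue of 10 mice went into each replicate. The assay reads whole tissue, so a change may come from any of its cell types, and neurons and glia are not separated.

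Each listed H3 position is 1 place in the genome that the authors selected as having higher (Up) or lower (Down) occupancy by nucleosomes in 1 group than in another. The tables give no size of change, p-value or read count, and list no position that was not selected. Up was read as higher in the group named first in a table; the files do not state this, and under the opposite reading every direction below turns round. With 1 table per pair of groups there was no spread between replicates, so no comparison between groups of mice was tested here. The 3 pairs also share groups with each other, so a library of 1 group enters 2 of the tables, and values from the 3 tables are given side by side only.

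Ion channels of these families set the firing of neurons. Sodium and calcium channels depolarise the membrane, and calcium channels also let in calcium. Potassium channels repolarise the membrane and hold it at rest. HCN, TRP and acid-sensing channels pass mixed or sodium currents in response to voltage, lipids, temperature or protons. In the nucleus accumbens the principal cells are medium spiny neurons, which rest at a strongly negative voltage held by inward rectifier potassium channels and fire when excitatory input overcomes them. ACF1, the accessory subunit of the ACF complex, helps the ATPase SNF2H to space and slide nucleosomes. The files hold no expression values, so the tissue could not be checked against its markers. Of 16 symbols of medium spiny neuron markers, with old and new symbols of a gene both counted, 4 were named in the tables. Those markers held 0, 4 and 1 positions in susceptible against control, resilient against control and resilient against susceptible.

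The channel genes held 254 listings of occupancy positions and every one of the 72 had at least 1, as the rule requires a listed row of some kind. The listings stand for 226 distinct positions, of which 28 were listed in 2 or 3 tables. Of 158 RefSeq symbols under the same rule outside chromosome 1, 86 had no listed row. Among those not listed were the sodium channel genes Scn1a, Scn2a and Scn8a, which carry most of the sodium current of central neurons, and Kcna1 and Kcna2, the main axonal potassium channels. All members matched a RefSeq symbol. One of them, Trpc4ap, is caught by its prefix only and encodes a partner protein, not a channel subunit. The families with every RefSeq gene listed were the ryanodine receptors (3 of 3) and the epithelial sodium channel subunits (3 of 3), whereas 0 of 4 sodium channel beta subunits and 1 of 4 acid-sensing channels were listed. Voltage-gated potassium channels had 13 of 37 genes listed and two-pore potassium channels 4 of 13. The share of all RefSeq genes with a listed row is not given here, so these counts have no background beside them. Nor are they corrected for gene length.

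The positions were shared unevenly. In the 3 tables together, 25 members held 1 listing, 28 held 2 or 3, 13 held 4 to 9 and 6 held 10 or more; the 6 were Asic2, Ryr2, Kcnmb2, Kcnip1, Kcnj6 and Kcnh8, and they carried 90 listings, 35.4% of the total. The share of genes with 10 or more listings was 8.33% among members and 2.45% among all named genes. The members are long genes, with a median length of 111 kb against 36.9 kb for all named genes, and long genes offer more room for a position.

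Per length, the channel genes held about as many positions as other genes of like length. For genes of 200 to 400 kb the 12 members held 19.8 listings per Mb, against 18.0 per Mb over all 456 named genes of that length. Below 50 kb the 20 members held 70.5 per Mb, against 73.9 for all named genes, and from 50 to 100 kb the 14 members held 37.2, against 34.0. The 15 members of 100 to 200 kb held 18.8 per Mb, against 22.5, and the 11 over 400 kb held 9.72, against 12.4. The tables name a gene only when it holds a position, which by itself raises these values for short genes. In the plot of positions against length, the channel genes lie within the spread of the other genes.

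**Figure D1:**
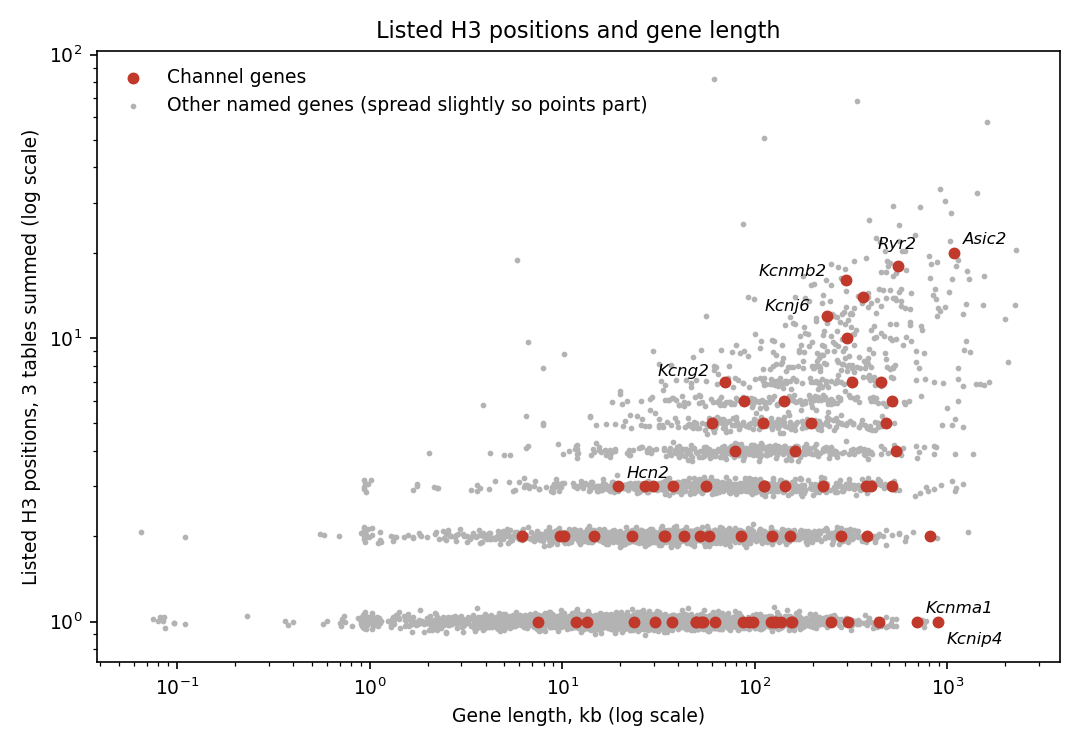
Listed H3 occupancy positions, summed over the 3 tables, against gene length for the 72 channel genes (red) and the other named genes outside chromosome 1 (grey); both axes are logarithmic. Asic2, with 20 listings, is the most listed channel gene, and Kcnip4 and Kcnma1 lie at the long end with 1 listing each.

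In susceptible against control mice, 52 of the 72 members (72.2%) held an occupancy position, where 53.9% of all named genes did. Their 99 positions were 41 Up and 58 Down, that is 41.4% Up (exact 95% binomial interval 31.6 to 51.8, counting error only). Over all named genes 37.6% of positions were Up, which lies inside that interval. In resilient against control mice, 45 members (62.5%) held a position, beside 53.3% of all named genes, and 24 of their 88 positions were Up. That is 27.3% Up (exact interval 18.3 to 37.8), against 36.7% over all named genes, again inside the interval. In resilient against susceptible mice, 37 members (51.4%) held a position, beside 49.2% of all named genes, and 30 of 67 positions were Up, 44.8% (exact interval 32.6 to 57.4), against 49.8%. Positions of 1 gene are not independent, so these intervals are narrower than they should be. Since members are longer than other genes, the higher shares of members with a position are not corrected for length.

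**Figure D2:**
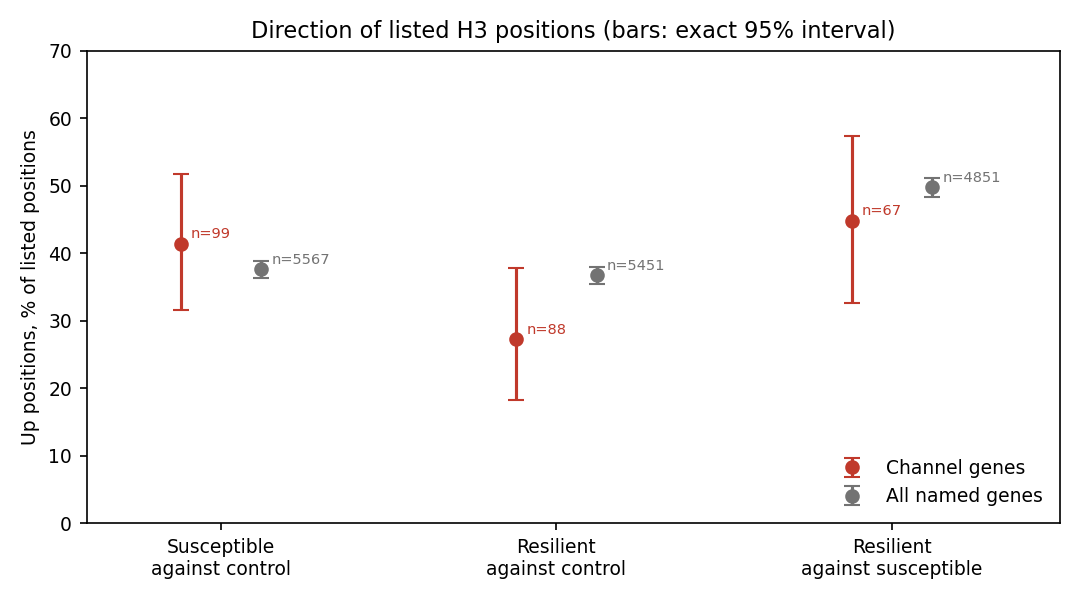
Share of Up positions among listed H3 occupancy positions at channel genes (red) and at all named genes outside chromosome 1 (grey) in each comparison; bars are exact 95% binomial intervals and n is the number of positions. The value for all named genes lies inside the channel genes' interval in each of the 3 comparisons, nearest its edge in resilient against control, at 36.7% with an upper bound of 37.8%.

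Within single genes, directions were often mixed. Of the 22 members with at least 2 positions in susceptible against control, 8 were all Down and 3 all Up, beside 33.2% and 9.74% of all named genes with at least 2 positions. Of 18 such members in resilient against control, 8 were all Down and 2 all Up, beside 32.8% and 11.4%. Of 12 in resilient against susceptible, 3 were all Down and 1 all Up, beside 20.2% and 19.8%.

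**Figure D3:**
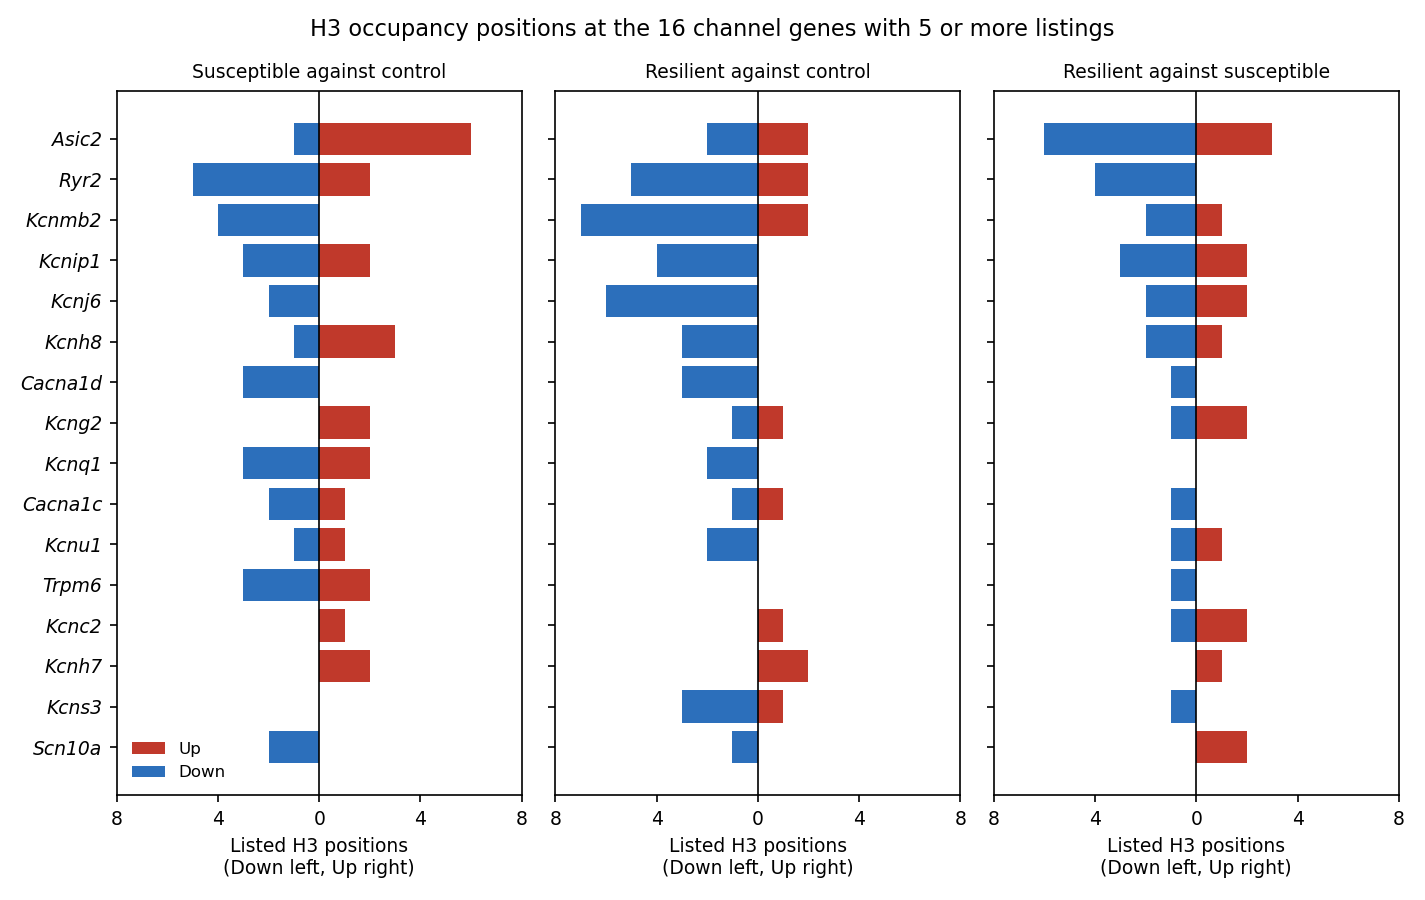
Number of listed H3 occupancy positions at the 16 channel genes with 5 or more listings, Down to the left and Up to the right of each zero line, for the 3 comparisons. Asic2 is mostly Up in susceptible against control (6 of 7) and mostly Down in resilient against susceptible (6 of 9), comparisons that share the susceptible library. Kcnj6 and Kcnmb2 are mostly Down in resilient against control (6 of 6 and 7 of 9).

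Few channel positions lay at promoters, and the gene start with the closest listed position is shown here together with gene starts that differ from it in CG content. Promoter classes of the authors' annotation, which reach 3000 bp from the start, held 4 of the 99 member positions in susceptible against control (4.04%), beside 13.5% over all named genes. In resilient against control they held 8 of 88 (9.09%), beside 12.7%, and in resilient against susceptible 1 of 67 (1.49%), beside 12.2%. Gene bodies held the rest. These promoter shares are not corrected for length: members had a median of 111 kb against 36.9 kb for all named genes. A reach of 3000 bp is a smaller part of a longer gene. The member closest to its start was Trpm5, a calcium-activated cation channel gene of taste cells on chromosome 7, with a Down position in resilient against control at 150280502 (mm9), 45.5 bp inside the gene by the authors' distance. RefSeq sequences, on GRCm38.p6, run from 250 bases before to 50 bases after a start, and were found for 9 of the 11 genes with a promoter position. They are on another build than the files, so the listed positions were not placed in them. By the authors' distances, the promoter positions of Hcn2 (-1546.5 bp) and Kcnj15 (2957.5 bp) lie outside these windows. Their sequences below therefore describe the gene start, not the listed position. Capitals mark CG dinucleotides.
Trpm5 (chr7:143094593-143094892, minus strand): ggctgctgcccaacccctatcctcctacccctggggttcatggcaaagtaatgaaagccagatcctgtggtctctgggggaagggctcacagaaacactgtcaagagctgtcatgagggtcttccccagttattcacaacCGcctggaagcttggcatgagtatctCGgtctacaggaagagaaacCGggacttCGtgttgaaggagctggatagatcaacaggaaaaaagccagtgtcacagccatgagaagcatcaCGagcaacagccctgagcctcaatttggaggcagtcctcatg
Hcn2 (chr10:79716384-79716683, plus strand): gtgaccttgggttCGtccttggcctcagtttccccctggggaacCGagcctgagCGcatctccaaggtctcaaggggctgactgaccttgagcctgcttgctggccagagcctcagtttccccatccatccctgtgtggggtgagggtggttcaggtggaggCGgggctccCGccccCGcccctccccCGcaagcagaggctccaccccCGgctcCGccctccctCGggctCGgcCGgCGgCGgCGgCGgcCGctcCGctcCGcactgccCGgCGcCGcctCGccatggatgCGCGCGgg
Kcnj15 (chr16:95257308-95257607, plus strand): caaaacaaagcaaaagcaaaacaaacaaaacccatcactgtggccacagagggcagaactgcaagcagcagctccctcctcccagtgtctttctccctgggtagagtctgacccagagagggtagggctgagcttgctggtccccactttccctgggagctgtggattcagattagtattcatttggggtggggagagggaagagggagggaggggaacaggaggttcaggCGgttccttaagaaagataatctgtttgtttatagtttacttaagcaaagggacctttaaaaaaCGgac

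These windows held 5 CG dinucleotides in Trpm5, 26 in Hcn2 and 2 in Kcnj15, where the median over 32851 windows of all genes was 7. Hcn2 encodes a pacemaker channel opened by hyperpolarisation and cyclic AMP, and its promoter position was Down in resilient against control at 79177832 of chromosome 10, at -1546.5 bp from the start. Kcnj15 encodes an inward rectifier, and its promoter position was Up in susceptible against control at 95482122 of chromosome 16, 2957.5 bp after the start. The letters TATAAA, searched on both strands, were in the window of Kcnj15 and in 13.6% of all windows. The GC content was 53.0% in Trpm5, 72.3% in Hcn2 and 49.7% in Kcnj15, beside a median of 52.7%.

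The other promoter positions were spread over families and directions. In resilient against control they were Down at Kcns3, a silent subunit that modifies other voltage-gated potassium channels (11154252 of chromosome 12), at Kcnj5, a G protein-gated inward rectifier of the heart atrium (32149972 of chromosome 9), and at its neighbour Kcnj1, the renal potassium secretion channel (32181372). The pacemaker channel gene Hcn4 was also Down there, at 58673512 of chromosome 9. With Trpm5, Hcn2 and Kcnv2, these made 7 of the 8 promoter positions of that table Down. Over all named genes 3453 of its 5451 positions of any class were Down, and the share at promoters alone is not given here. Up promoter positions were listed at Kcne3, a small auxiliary subunit of potassium channels (107329672 of chromosome 7), in the table of resilient against control and also in that of resilient against susceptible. These tables share the resilient library. Kcnv2, a silent potassium channel subunit known from the retina, was Down at 27395622 of chromosome 19 in both comparisons with controls, which share the control library. In susceptible against control, Kcnk9, a two-pore leak channel gene, was Down (72378762 of chromosome 15), and Scn7a, an atypical sodium channel gene, was Up (66621022 of chromosome 2).

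Pore-forming potassium channel genes, 27 members, held 33 positions in susceptible against control (15 Up, 18 Down), 31 in resilient against control (8 Up, 23 Down) and 26 in resilient against susceptible (14 Up, 12 Down). Inward rectifiers had 8 of 9 positions Down in resilient against control, and Kcnj6 supplied 6 of the 8. Over all named genes 3453 of 5451 positions were Down in that comparison. The inward rectifier genes Kcnj2 and Kcnj4 had no listed row, so the count says nothing of them. Kcnj6, on chromosome 16 from 94982686 to 95219303 (mm9), encodes a subunit of the G protein-gated channels through which dopamine D2 and opioid receptors silence neurons. It had 2 positions, both Down, in susceptible against control, 6, all Down, in resilient against control, and 4, with 2 Up and 2 Down, in resilient against susceptible. The 6 positions of resilient against control lay between 94992862 and 95184942, over 192 kb, with no 2 of them closer than 6.59 kb. They are thus separate nucleosome positions along most of the gene, not 1 cluster.

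Voltage-gated potassium channel genes led by number, with 13 members and 50 listings. Kcnh8, an ether-a-go-go type channel gene of the forebrain on chromosome 17, had 3 Up and 1 Down in susceptible against control, 3 Down in resilient against control, and 1 Up and 2 Down in resilient against susceptible. Its position at 52829772 was Up in susceptible against control but Down when resilient mice were set against susceptible ones, tables that share the susceptible library. Kcnh7, of the same broader family on chromosome 2, was Up at each of its 5 listings: 2 in susceptible against control, 2 in resilient against control and also 1 in resilient against susceptible. Its position at 62784842 was Up in both tables that hold the resilient library, so the 5 listings stand for 4 places. Among members with 5 or more listings, Kcnh7 alone had no Down position and Cacna1d alone no Up position. The share of all named genes with as many listings that keep 1 direction is not given here. Neither gene thus has a background beside it. Kcnq1, the delayed rectifier of heart and epithelia on chromosome 7, had 2 Up and 3 Down in susceptible against control, 2 Down in resilient against control, and no position in resilient against susceptible. Kcng2, a silent subunit on chromosome 18, had 2 Up in susceptible against control, 1 Up and 1 Down in resilient against control, and 2 Up and 1 Down in resilient against susceptible. Kcnc2, a fast channel of fast-spiking interneurons on chromosome 10, had 1 Up position in each comparison with controls, and 2 Up and 1 Down in resilient against susceptible. Apart from Kcnh7, directions at these genes were mixed within or between tables. Kcns3 had 1 Up and 3 Down in resilient against control, 1 Down in resilient against susceptible and none in susceptible against control.

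Smaller potassium families held few positions each. Two-pore channel genes had 1 Up and 5 Down in susceptible against control and 1 position in each of the other tables. Over all named genes 3476 of 5567 positions were Down in susceptible against control. Among the calcium- or sodium-activated channels, Kcnu1, the potassium channel of sperm, had 1 Up and 1 Down in susceptible against control, 2 Down in resilient against control, and 1 Up and 1 Down in resilient against susceptible. Kcnma1, which encodes the BK channel opened by calcium and voltage, held 1 listing over 697.6 kb, Down in resilient against control. That is 1.43 per Mb, below every member but Kcnip4 (1.12).

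Potassium channel auxiliary genes held 38 listings in 7 members, and Kcnmb2 and Kcnip1 carried 30 of them between them (16 and 14). Kcnmb2, on chromosome 3 from 31801624 to 32099102, encodes a beta subunit that makes BK channels inactivate. It had 4 positions, all Down, in susceptible against control, 9 in resilient against control (2 Up, 7 Down) and 3 in resilient against susceptible (1 Up, 2 Down); its 9 positions, with the 9 of Asic2 in resilient against susceptible, were the highest number of any member in a table. At 31941172 it was Down in both comparisons with controls, which share the control library. Kcnip1, on chromosome 11 from 33529340 to 33893193, encodes a calcium-binding subunit of A-type potassium channels. It had 2 Up and 3 Down in susceptible against control, 4 Down in resilient against control, and 2 Up and 3 Down in resilient against susceptible. Kcnip4, its relative on chromosome 5, is 896.2 kb long and held 1 listing, Up in resilient against control.

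**Figure D4:**
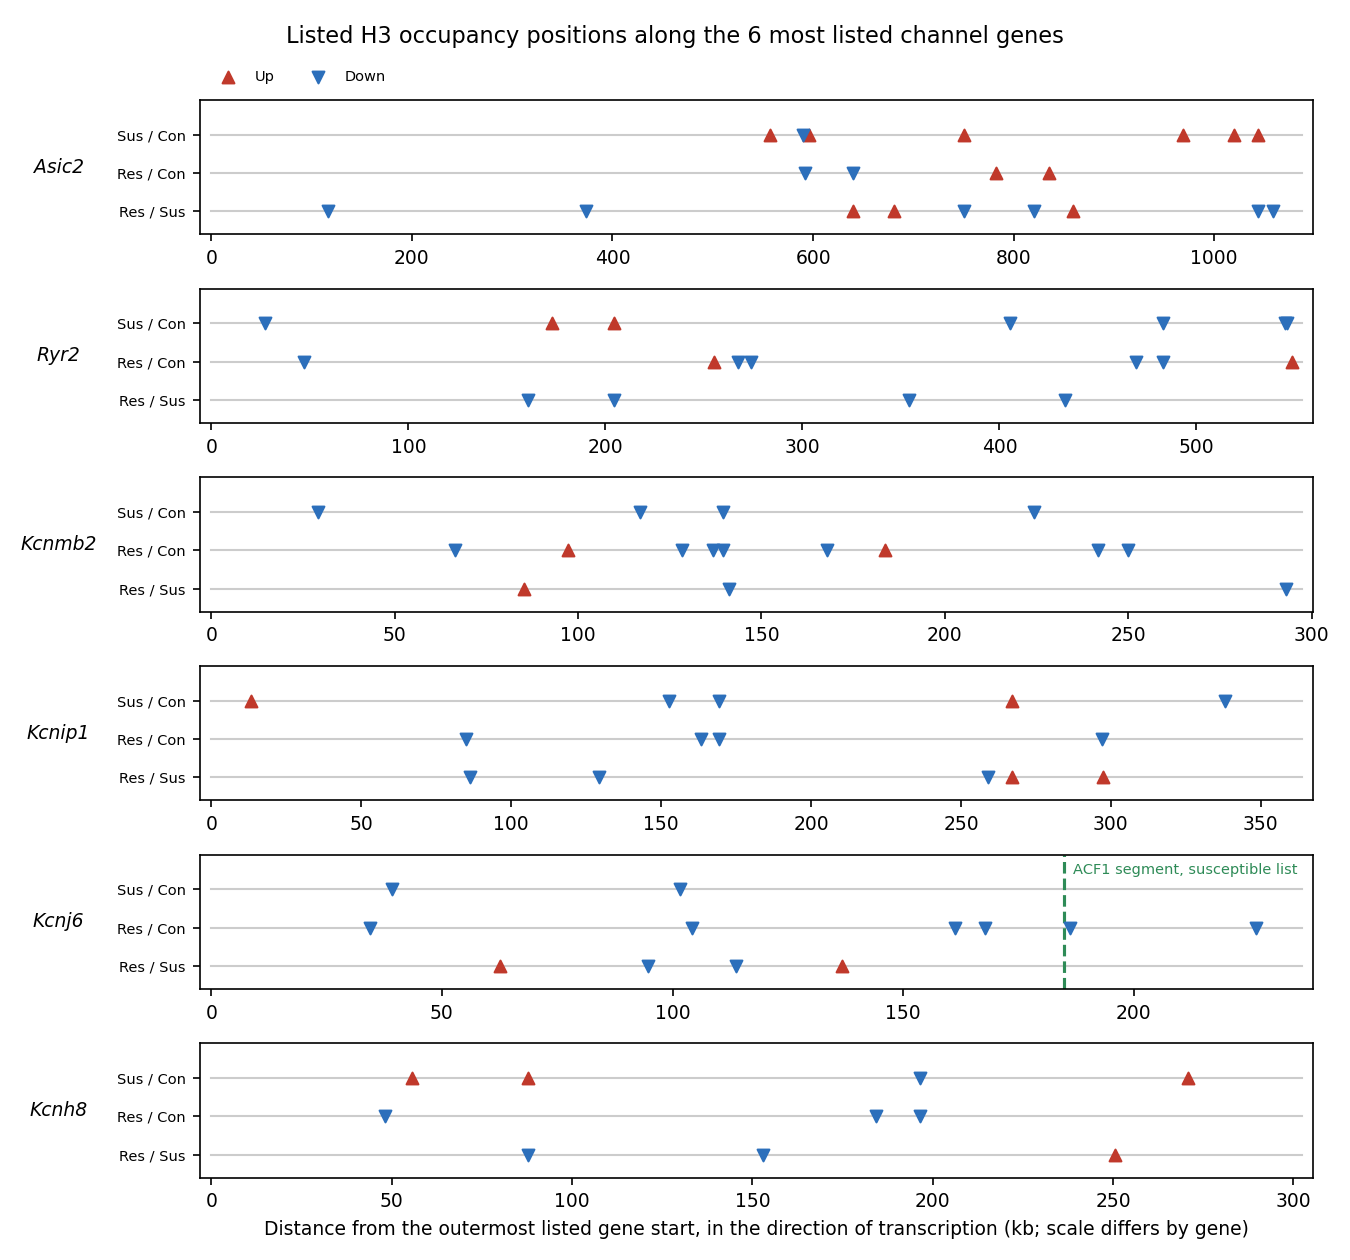
Listed H3 occupancy positions along the 6 channel genes with 10 or more listings, by distance from the outermost listed gene start in kb; red triangles are Up, blue triangles Down, and the rows are susceptible against control, resilient against control and resilient against susceptible. The dashed line in Kcnj6 marks the ACF1 segment of the susceptible list, with a Down position of resilient against control 0.849 kb from it. That comparison holds no susceptible library.

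Sodium channel genes, voltage-gated and epithelial, held 3 Up and 4 Down in susceptible against control, 5 Down in resilient against control, and 4 Up and 1 Down in resilient against susceptible. Over all named genes the Down positions were 3476 of 5567, 3453 of 5451 and 2437 of 4851, in that order. Scn10a, the tetrodotoxin-resistant channel of sensory neurons on chromosome 9, had 2 Down in susceptible against control, 1 Down in resilient against control and 2 Up in resilient against susceptible. Scn7a was Up in its 2 positions of susceptible against control and its 1 position of resilient against susceptible.

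Calcium channel genes of all subunit kinds held 5 Up and 11 Down in susceptible against control, 5 Up and 7 Down in resilient against control, and 1 Up and 4 Down in resilient against susceptible. The alpha-1 genes, which form the pore, had 1 Up and 8 Down in the first, 3 Up and 6 Down in the second and 2 Down in the third. Over all named genes 3476 of 5567, 3453 of 5451 and 2437 of 4851 positions were Down in these comparisons, in that order. Cacna1d, an L-type channel gene that opens at low voltage, lies on chromosome 14 and was Down at each of its 7 listings: 3 in susceptible against control, 3 in resilient against control, plus 1 in resilient against susceptible. Its positions at 30857762 and 31215272 were Down in both comparisons with controls, which share the control library, so the 7 listings stand for fewer places. The gene overlaps Chdh, a choline dehydrogenase gene also named in the tables. Cacna1c, the other L-type gene of the brain, on chromosome 6, had 1 Up and 2 Down in susceptible against control, 1 Up and 1 Down in resilient against control, with 1 Down in resilient against susceptible. At 118825892 it was Down in both comparisons with controls. Cacna1a, the P/Q-type channel gene of nerve terminals on chromosome 8, had 2 Down in susceptible against control, with 1 Down in resilient against control. The accessory genes (alpha-2-delta, beta and gamma) held 13 listings in 9 members, and Cacna2d3 held 2 over 816.9 kb, both Down in susceptible against control.

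Ryanodine receptor genes encode the channels that release calcium from the endoplasmic reticulum. Ryr2, the receptor of heart and much of the brain, lies on chromosome 13 from 11645369 to 12199212. It had 2 Up and 5 Down in susceptible against control, 2 Up and 5 Down in resilient against control, with 4 Down in resilient against susceptible. At 11716192 it was Down in both comparisons with controls, which share the control library. At 11994812 it was Up in susceptible against control but Down for resilient against susceptible, which share the susceptible library. Ryr3 had 1 Up in susceptible against control, with 2 Down in resilient against susceptible, and Ryr1, the receptor of skeletal muscle, 1 Up in resilient against control.

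Asic2, the single acid-sensing channel gene listed, encodes a proton-gated sodium channel subunit of neurons and was the most listed member. It spans 1088 kb of chromosome 11, from 80693666 to 81781898. Susceptible against control listed 6 Up and 1 Down, resilient against control 2 Up and 2 Down, and resilient against susceptible 3 Up and 6 Down. Its positions at 80737992 and 81031622 were Up in susceptible against control but Down for resilient against susceptible, comparisons that share the susceptible library. In the map along the gene, the 7 positions of susceptible against control lie beyond the midpoint, over 487 kb. The 4 of resilient against control also lie beyond it, over 243 kb. Those of resilient against susceptible reach over 943 kb, and all of them but 81408342 and 81665612 lie beyond the midpoint. Per length, Asic2 held 18.4 listings per Mb, less than Kcnmb2 (53.8), Kcnj6 (50.7), Kcnip1 (38.5), Kcnh8 (33.1) and Ryr2 (32.5).

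TRP channel genes held 4 Up and 7 Down in susceptible against control, 1 Up and 7 Down in resilient against control, and 3 Up and 1 Down in resilient against susceptible. Trpm6, a magnesium-permeable channel with a kinase domain on chromosome 19, had 2 Up and 3 Down in susceptible against control, none in resilient against control, with 1 Down in resilient against susceptible. Its 5 positions of susceptible against control lay within 94.0 kb. Trpm3, opened by heat and neurosteroids, had 1 Down in susceptible against control, with 3 Down in resilient against control. Trpc4, a receptor-operated channel gene, had 1 Up and 1 Down in each comparison with controls. HCN genes had 2 Up and 2 Down in susceptible against control, 3 Down in resilient against control, with 2 Down in resilient against susceptible. Beside these TRP and HCN counts, 3476 of 5567, 3453 of 5451 and 2437 of 4851 positions over all named genes were Down, in that order.

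Gene-body positions of members were placed along the genes much like those of all named genes. Over the 3 tables, 24.9% of 241 listings of member positions lay in the first of 3 equal parts of the gene, 35.7% in the middle part and 39.4% in the last part. Over all named genes the shares were 26.2%, 33.9% and 39.9%.

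Nucleosome shifts were listed at 8 channel genes in all. Susceptible against control listed them at 4 of the 72 (5.56%), where 2.15% of all named genes held a shift: -70 bp in Ryr2, 60 bp in Kcnk10, a mechanosensitive two-pore channel gene, 80 bp in Kcnc2 and 60 bp in Kcnj5. The files do not say which way a positive shift points. Resilient against susceptible also listed 4 (5.56%), where 1.7% of named genes held one: 70 bp in Kcnq1, -80 bp in Kcnmb2, 70 bp in Kcnh7 and -60 bp in Asic2. Resilient against control listed 0 shifts at members, where 1.93% of named genes held one, and 158 shifts over all named genes. Per 100 occupancy positions, the members held 4.04 shifts in susceptible against control and 5.97 in resilient against susceptible, against 3.14 and 3.05 over all named genes. In resilient against control the members held 0, against 2.9. With 4 or fewer shifts in a table these shares rest on small counts and are not corrected for gene length. Of the 8 members with a shift, 0 were shifted in more than 1 table, beside 7.32% of the 355 named genes with a shift.

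ACF1 segments overlapped 1 member in each group, 3 genes in all; of the 240 named genes with a segment, 65.4% had one in a single list. A segment here is a stretch of the rarer of the 2 states into which the authors divided the genome in steps of 200 bp; the files do not say that it is the bound state. In the susceptible list, 1 of 72 members (1.39%) held a segment, beside 2.48% of all named genes: Kcnj6, with 800 bp from 95034001 to 95034800 of chromosome 16, at 78.1% of the gene's length. In the resilient list it was Kcnip4 (1.39%, beside 1.4% of named genes), with 800 bp from 49115001 to 49115800 of chromosome 5. The control list held Cacnb2, a beta subunit gene of calcium channels (1.39%, beside 1.81%), with 1000 bp from 14540801 to 14541800 of chromosome 2. The shares of genes are not corrected for length. By covered length, segments took 0.0559 kb per Mb of the members in the susceptible list, 0.0559 in the resilient and 0.0698 in the control list, against 1.31, 0.872 and 0.804 kb per Mb of all named genes. Each member value rests on 1 segment. The nearest segment of another list was 3498 kb from that of Kcnj6, 1955 kb from that of Kcnip4 and 2348 kb from that of Cacnb2.

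Of the 254 listings of member positions, 1 (0.394%) lay within 1000 bp of a susceptible segment, beside 1.83% of the listings of all named genes. It was the Down position of Kcnj6 at 95033152 in resilient against control, 0.849 kb away. That comparison holds no susceptible library. The nearest Kcnj6 positions lay 82.8 kb from the segment in susceptible against control and 47.81 kb in resilient against susceptible. No member position of any table lay within 1000 bp of a resilient or control segment, beside 1.37% and 1.6% over all named genes, and the closest distances to these were 65.73 kb and 65.93 kb, both at Trpm6. The position of Kcnip4 lay 241.3 kb from its segment, and the nearest of Cacnb2 88.54 kb from its own. Outside member genes, susceptible segments lay 6.422 kb from Kcns3 and 7.543 kb from Kcnab2, a cytoplasmic beta subunit of voltage-gated potassium channels.

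Genes of other channels and of channel partners, a list of 52, gave counts of the same order. Of these, 25 were named in the tables, with 36 positions in susceptible against control (15 Up, 21 Down), 31 in resilient against control (15 Up, 16 Down) and 30 in resilient against susceptible (15 Up, 15 Down). Per length that is 5.62, 4.84 and 4.68 per Mb, beside 6.91, 6.15 and 4.68 for the channel genes and 9.66, 9.46 and 8.42 for all named genes, which are shorter. Fam155a, an accessory protein of the sodium leak channel, held 3 Up and 2 Down, 5 Up and 2 Down, and 4 Up and 2 Down in the 3 tables. Dpp6, a partner of A-type potassium channels, held 2 Up and 5 Down, 1 Up and 2 Down, and 1 Up and 1 Down, and was overlapped by a control ACF1 segment.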

How the data were processed

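H3 occupancy and nucleosome shifts were taken from 6 tables and ACF1 states from 3 segmentations; the files of 6 of 15 samples were used, and libraries of SNF2H and of input chromatin were not used here. Per the labels' protocols, chromatin was sheared (ACF1) or digested with micrococcal nuclease (H3), amplified with 19 or 15 PCR cycles and sequenced with 100 bp reads. The build mm9 and CASAVA 1.8.2 are named in the submitters' processing notes; no source used here names the aligner, the thresholds or what made the tables. The authors deposited directions (Up or Down) with no score of change, shifts as a signed score in bp, and states E1 and E2; depth is unknown. The pair of groups in a table was read from the name under which it was deposited.

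Members were found by symbol. Gene bounds are the union of those listed, positions are 1-based on mm9, and overlap needs at least 1 bp. Chromosome 1 was left out because it holds a pile-up of Down positions in susceptible against control. Positions were counted and shares given exact 95% intervals (Python 3.11.15, pandas 2.3.3, scipy 1.17.1); no test between groups could be made. Counting was checked on simulated data. Named were members with at least 5 positions in 1 table, the 20 with most listings, and all with a promoter position, a shift or an ACF1 segment; others were chosen after their values were seen. Members and lists were chosen with earlier results of these data known. Of the marker lists, 0 of 6 oligodendrocyte, 2 of 6 astrocyte, 3 of 6 microglia and 4 of 5 endothelial genes were named in the tables. Some members are counted in the totals but not reported here by name.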

Additional observations from a re-analysis of the deposited data

Results flagged for a closer look

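Channel genes of chromosome 1, which the rule leaves out, held 205 occupancy positions and 19 shifts in susceptible against control, data outside the comparisons above. All 12 such genes held a position there, and 204 of the 205 were Down. The most listed were Kcnt2, a sodium-activated potassium channel gene (42 Down), Kcnq5, of the M-current family (36 Down), Kcnh1 (31 Down), the cold receptor gene Trpm8 (26 Down, with 12 of the 19 shifts) and the calcium channel genes Cacna1e (22 Down) and Cacna1s (18 Down). In resilient against control the 12 genes held 8 positions, and in resilient against susceptible 13. Per length the channel genes of chromosome 1 held 87.8 positions per Mb in susceptible against control, beside 158 per Mb for all genes named there, of whose positions 98.4% were Down, so the high number was shared by other genes of the chromosome. Kcnb2, at 15302532 to 15704295 near the start of the chromosome, held 3 Down in susceptible against control, 3 Up in resilient against control, and 3 Up and 2 Down in resilient against susceptible.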

How the results depend on the processing

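No paired analysis was possible because each group had 1 deposited result per target and no result comes from a test; for the same reason no replicate could be left out. Including member genes of chromosome 1 changed susceptible against control: 304 positions in place of 99, 13.82% Up in place of 41.4%, and 23 shifts in place of 4. Keeping shifts of at least 70 bp left 2 in susceptible against control. Keeping ACF1 segments at least 1000 bp wide left 0 members in the susceptible and 0 in the resilient list. Counts of positions, of shifts and of members with a segment stayed within 1.5 times, and Up shares within their intervals, under every other alternative run: gene-body positions only, neighbours within 200 bp merged, pore-forming subunits only, the most listed member left out, shortest gene bounds, an overlap of 200 bp, and bounds extended by 3000 bp. Depth is unknown, so unlisted genes cannot be read as unchanged.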
